A study of Caenorhabditis elegans with 2 samples.

Results

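The genes cct-1 to cct-8 encode the 8 subunits of the cytosolic chaperonin of Caenorhabditis elegans, named T-complex protein 1 subunits alpha to theta in RefSeq. They were taken by gene name, as 8 of the 19973 protein-coding genes of the Ensembl annotation. A window ran from 1000 bp before the 5′ end of each gene to 500 bp past it, every peak summit in it was collected, and a gene with no such summit counted as a result. The data are ChIP-seq, the sequencing of DNA recovered with a chromatin protein, for MEL-28, a nuclear pore and kinetochore protein related to ELYS of vertebrates. The animals were whole young adults of strain OP646 (unc-119(tm4063) III; wgIs646), males and females pooled, taken 64 h after release from starvation at the first larval stage. They carried the insertion wgIs646, from which MEL-28 was made with GFP and FLAG at its C-terminus, and chromatin was sheared by sonication and precipitated with an antibody against GFP. There was 1 group with 2 biological replicates and a control shared by both, so no conditions could be compared, and a peak sums over all cells of the animals.

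The cytosolic chaperonin, also called TRiC, is a double ring of related subunits that takes up unfolded proteins, closes over them and releases them folded with the use of ATP. Actin and tubulin are its best known clients, and prefoldin hands nascent actin and tubulin to it. Each ring holds all of the subunits, and in budding yeast each is essential. Genes for chaperones are classical targets of heat shock factor, which binds runs of the unit nGAAn in alternating orientation.

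In the pooled list, which holds background as well as peaks, 6 of the 8 cct genes had a MEL-28 summit in the window, and 28.2% of all protein-coding genes did. When a summit counted only for the nearest protein-coding 5′ end, 2 of the 8 had one, beside 23.9% of all protein-coding genes. The window of cct-8, which encodes the theta subunit, held the strongest summit, at rank 10 among nuclear pooled peaks. It was the sole member window with a reproducible summit, beside 1.22% of all protein-coding genes. The cct-8 summit lay 430 bp from cct-8 and 191 bp from the divergent protein-coding gene Y55F3AR.2, with the noncoding gene Y55F3AR.4 within 500 bp. Counted for the nearest protein-coding 5′ end alone, it left 0 of the 8 members in the reproducible list. The share of all genes under that rule was not computed for that list. cct-1, for the alpha subunit, came next, followed by cct-7 (eta), cct-6 (zeta), cct-5 (epsilon) and cct-4 (delta) with signals of 43.8 to 54.5. cct-2 (beta) and cct-3 (gamma) had no summit in the window in any list.

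Peaks were read from 4 deposited lists on the ce11 build. The list pooled over replicates held 17025 peaks, the lists of replicates 1 and 2 held 23790 and 19598, and the reproducible list held 389. Per the deposited file names, the pooled and replicate lists hold peaks together with background and were made as input to the reproducibility step, so an entry in them is not by itself a called peak, and only the reproducible list was thresholded. The depositors' −log10 q-value of the strongest pooled window summit was 2.05 at cct-8, 1.90 at cct-1, 0.845 at cct-7, 0.485 at cct-6, 0.413 at cct-5 and 0.359 at cct-4. The last 4 genes thus rest on entries of low confidence by that measure. Of the pooled and reproducible peaks, 20 lay on the mitochondrial genome in each list. Signal is the depositors' value for each peak, in a unit not given, without an error, so values are set side by side only within a list. The depth of the libraries is unknown from these lists. Nuclear signal ran from 29.3 to 412 with a median of 37.7 in the pooled list, from 13.5 to 200.3 with a median of 17.8 in replicate 1, and from 19.0 to 213.5 with a median of 24.7 in replicate 2.

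To show the DNA under the strongest pooled summits, the windows of the 3 members with the highest signal are given as 300 bases, 5′ to 3′ on the strand of the cct gene, from the RefSeq sequence of WBcel235 (ce11). Capitals mark matches to the heat shock element units GAANNTTC and TTCNNGAA and to the TATA motif TATAAA. Each of these heat shock element units is a pair of nGAAn in opposite orientations, and is called a unit below. The cct-8 window is chrIV:1094201-1094500 on the minus strand, the cct-1 window chrII:8185050-8185349 on the plus strand, and the cct-7 window chrV:1871816-1872115 on the plus strand.
cct-8: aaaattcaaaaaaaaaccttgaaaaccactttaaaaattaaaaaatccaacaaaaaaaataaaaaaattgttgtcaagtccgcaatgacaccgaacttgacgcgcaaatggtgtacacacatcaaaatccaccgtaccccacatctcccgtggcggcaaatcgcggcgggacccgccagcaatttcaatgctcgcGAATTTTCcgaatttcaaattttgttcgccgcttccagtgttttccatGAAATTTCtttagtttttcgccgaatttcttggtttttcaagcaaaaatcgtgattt
cct-1: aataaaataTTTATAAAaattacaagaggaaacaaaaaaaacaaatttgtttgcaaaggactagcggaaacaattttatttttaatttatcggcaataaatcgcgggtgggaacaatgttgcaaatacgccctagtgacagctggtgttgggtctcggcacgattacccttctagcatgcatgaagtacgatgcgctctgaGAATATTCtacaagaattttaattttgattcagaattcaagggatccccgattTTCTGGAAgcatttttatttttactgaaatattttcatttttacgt
cct-7: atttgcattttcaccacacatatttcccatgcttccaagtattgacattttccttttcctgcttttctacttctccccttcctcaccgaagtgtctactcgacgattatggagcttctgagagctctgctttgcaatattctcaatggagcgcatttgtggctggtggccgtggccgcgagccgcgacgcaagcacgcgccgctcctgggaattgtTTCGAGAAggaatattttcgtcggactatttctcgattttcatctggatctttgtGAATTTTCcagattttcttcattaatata
The cct-8 window held GAANNTTC starting 45 and 93 bp past the summit, on the side of cct-8, and it touched the noncoding gene Y55F3AR.4. The cct-1 window held GAANNTTC at 51 bp and TTCNNGAA at 104 bp past the summit, with overlapping TATAAA matches 141 and 139 bp before it. The cct-7 window held TTCNNGAA at 66 bp and GAANNTTC at 121 bp past the summit and touched the noncoding gene T10B5.13. The G and C content of these windows was 38.7%, 33.7% and 45% in the same order.

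Motifs were searched on both strands in the 300-base windows of the 6 members with a pooled summit. A heat shock element unit of either form stood in 5 of the 6, in all but cct-4, and in 30.2% of all 17005 pooled nuclear windows and 29.5% of the 369 reproducible ones. GAANNTTC was found in 3 of the 6 (17.5% of pooled windows) and TTCNNGAA in 4 (17.4%). TATAAA was found in 1 of the 6, at cct-1, against 26.5% of pooled windows. GCGGGAA, the core of the E2F motif, was found in 0 of the 6 (3.92%), GAGAGA in 0 (22.5%) and CTGCGTC in 0 (5.15%). The last 3 were more frequent in the reproducible windows, at 6.78%, 37.1% and 12.2%, but were not in the cct-8 window. The median G and C content of the 6 windows was 36.2%, from 31.3% to 45.7%, beside a median of 38% over the pooled windows.

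The unit was also searched in the 300 bases upstream of each annotated 5′ end, a window added after values had been seen. All 8 cct genes held at least 1 unit of either form there, among 32.0% of the 19973 protein-coding genes. GAANNTTC occurred in 5 of the 8 (19.0% of all genes) and TTCNNGAA in 6 (18.0%). A run of 3 alternating GAA and TTC triplets, spaced by 2 bases each, occurred in 0 of the 8 and in 1.92% of all genes. The median G and C content upstream was 31% for the members, from 30.3% to 38%, and 33.3% for all genes. The unit nearest to each 5′ end is shown in capitals within 30 bases on the strand of the gene, since every member held one form or the other, though neither form alone was in all 8.
cct-1: gatccccgattTTCTGGAAgcatttttatt
cct-2: atattttgagtTTCGAGAAggattttccct
cct-3: aggtgttccttGAAAATTCccccaaatttc
cct-4: agctatagaatTTCTAGAAgaattattatt
cct-5: tcattcctcgaGAATATTCtgcgggtttga
cct-6: gcgaatttattTTCTAGAAtaaattcaaac
cct-7: tggatctttgtGAATTTTCcagattttctt
cct-8: tttgtcatcgtGAAGTTTCtcaaagtgaat
These stretches are chrII:8185293-8185322, chrII:8927464-8927493, chrII:2233507-2233536 and chrII:8283490-8283519 on the plus strand, chrIII:4508246-4508275 and chrIII:5855908-5855937 on the minus strand, chrV:1872076-1872105 on the plus strand and chrIV:1094091-1094120 on the minus strand. The units began 22 bp upstream of the 5′ end at cct-3, 139 to 189 bp upstream at cct-1, cct-4, cct-5, cct-7 and cct-8, and 239 and 266 bp upstream at cct-6 and cct-2. They lay 25 bp from the strongest pooled summit at cct-6 and 104 bp or more from it at the other 5 genes with a summit. The unit was present at cct-2 and cct-3 as well, where no summit was found in the window. A match is a stretch of letters and does not show that heat shock factor was bound, and binding of that factor was not analysed here.

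Beside the pooled count of 6 of 8 against 28.2%, the count in replicate 1 was 6 of 8 against 37.1%, in replicate 2 also 6 of 8 against 30.5%, and the same 6 genes had one in both replicates against 18.1%. In the reproducible list it was 1 of 8 against 1.22%. The group of 8 is small, so each gene moves the share by 12.5 percentage points. The plot of summit positions shows where each list placed them.

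**Figure D1:**
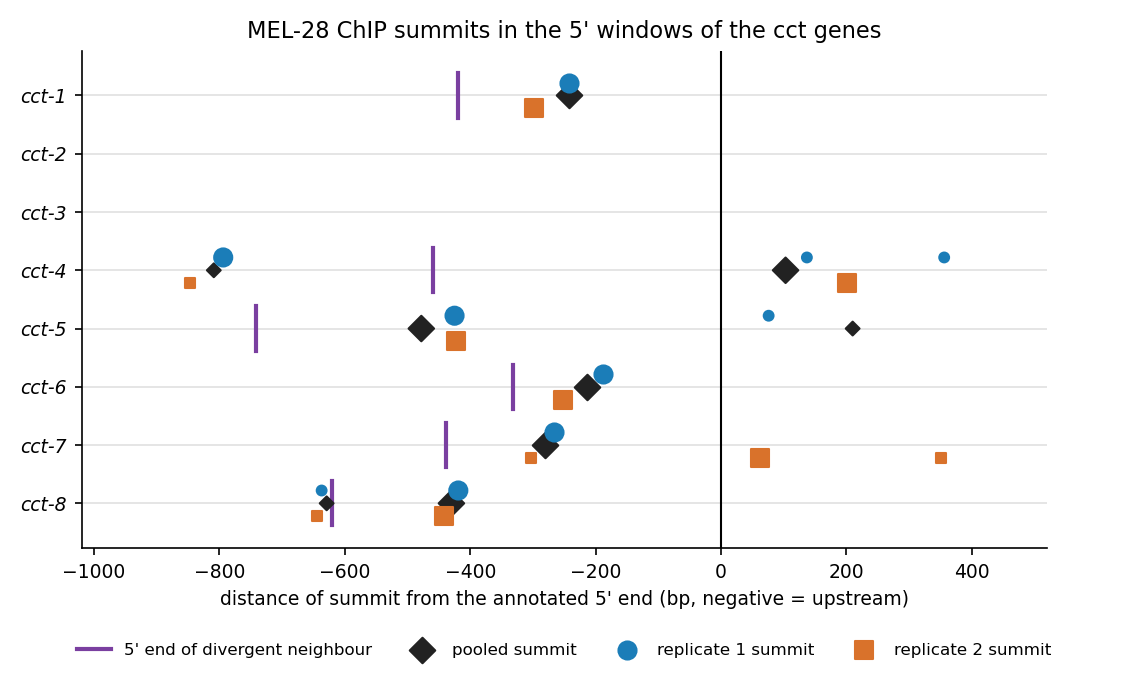
Distance in bp of each summit from the annotated 5′ end of the 8 cct genes, with negative values upstream, for the pooled list (diamonds), replicate 1 (circles) and replicate 2 (squares). Large symbols are the strongest summit of a gene in a list, and small ones its further summits. Purple bars are the 5′ end of the neighbouring protein-coding gene on the other strand. The strongest pooled summit of 5 genes sits between both starts, while cct-2 and cct-3 are empty.

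cct-8 (WBGene00021934) lies on chrIV:1087108-1093920 on the minus strand with 9 exons. Its strongest pooled summit had a signal of 263 and rank 29 of 17025, or rank 10 among nuclear peaks, and lay 430 bp upstream of the 5′ end in a peak of 176 bp at chrIV:1094280-1094455. The same peak stood at rank 29 of the reproducible list. In replicate 1 the strongest summit had a signal of 108 at rank 36 and lay 419 bp upstream, and in replicate 2 it had a signal of 147 at rank 32 and lay 442 bp upstream. The replicates thus placed it 23 bp apart, within the top 0.151% and 0.163% of their lists. A second pooled summit of 79.5 at rank 661 lay 629 bp upstream, inside the neighbour Y55F3AR.2. It ranked 13853 in replicate 1, with 16.9, and 1901 in replicate 2, with 38.8, so the replicates differed more at this flank than at the main summit.

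cct-1 (WBGene00000377) lies on chrII:8185443-8187601 on the plus strand with 5 exons. Its pooled summit had a signal of 74.3 at rank 827 and lay 243 bp upstream. Replicate 1 gave 39.7 at rank 695 and 242 bp upstream, and replicate 2 gave 32.8 at rank 3677 and 298 bp upstream. The gene therefore stood in the top 2.92% of the first list but only in the top 18.8% of the second. The weakest reproducible nuclear peak had a pooled signal of 92.7 and the next nuclear pooled peak below it 92.6, so cct-1 reached 80.2% of the signal at which the reproducible list ended.

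cct-7 (WBGene00020391), on chrV:1872246-1875505 on the plus strand with 6 exons, had a pooled summit of 54.5 at rank 2406, 280 bp upstream. Replicate 1 placed a summit of 21.6 at rank 6541 and 267 bp upstream. Replicate 2 had 3 summits, of 30.4 at 62 bp downstream, 29.9 at 303 bp upstream and 20.0 at 351 bp downstream. The upstream summit was thus seen in both replicates, but in replicate 2 the one just inside the gene was marginally higher, and the strongest summits of the replicates were 329 bp apart.

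cct-6 (WBGene00000381), on chrIII:5853530-5855687 on the minus strand with 10 exons, had a pooled summit of 46.9 at rank 4149, 214 bp upstream. Its replicate values were 19.6 at rank 8987 and 189 bp upstream, and 19.9 at rank 17538 and 252 bp upstream. The replicates placed the summit 63 bp apart, but it stood 89.5% of the way down the list in replicate 2 and 37.8% in replicate 1.

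cct-5 (WBGene00000380), on chrIII:4499188-4508114 on the minus strand with 8 exons, had a pooled summit of 45.2 at rank 4669, 478 bp upstream, and a weaker one of 34.2 at 210 bp downstream. The strongest replicate summits were 20.4 at rank 7891 and 26.7 at rank 7637, 425 and 423 bp upstream. They stood 2 bp apart, the closest placement among the members. The downstream summit had a counterpart of 17.6 in replicate 1, at 76 bp, and none within the window in replicate 2.

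cct-4 (WBGene00000379), on chrII:8283667-8285711 on the plus strand with 6 exons, was the sole member whose strongest pooled summit lay inside the gene, with 43.8 at rank 5211 and 103 bp downstream. A pooled summit of 31.4 at rank 14230 lay 809 bp upstream, within nst-1. Replicate 1 was highest at 794 bp upstream with 16.9 at rank 13923, and replicate 2 was highest at 201 bp downstream with 21.4 at rank 14569. Replicate 1 also had 16.6 at 356 bp and 14.3 at 137 bp downstream, and replicate 2 also had 19.3 at 847 bp upstream. Both regions thus held a summit in each replicate, but a different one was the stronger. The strongest peaks of the replicates were 995 bp apart and shared 0% of their length, whereas those of cct-1, cct-5 and cct-8 overlapped by 100% of the shorter peak, those of cct-6 by 99.7% and those of cct-7 by 25.8%.

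cct-2 (WBGene00000378), on chrII:8927741-8929815 on the plus strand with 4 exons, had no window summit in any of the 4 lists. Its nearest pooled summit lay 2173 bp from the 5′ end, past the end of the gene in mrpl-50, which encodes a mitochondrial ribosomal protein, with 77.1 at rank 721. Replicate 2 had it at 2203 bp with 52.3 at rank 556, and replicate 1 alone had a summit of 17.2 in an exon of cct-2, at 919 bp. A distance of that order was usual, since the median over all protein-coding genes was 2187 bp.

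cct-3 (WBGene00018782), on chrII:2233540-2243539 on the plus strand with 8 exons, also had no window summit in any list. Its nearest pooled summit lay 17941 bp away in Y59C2A.3, and only 2.41% of protein-coding genes were as far or farther from one. In the replicates the nearest summits were 11364 and 12924 bp away. cct-2 and cct-3 therefore differed in their surroundings. A pooled summit of 77.1, below the weakest reproducible nuclear peak of 92.7, stood just past cct-2. By contrast, cct-3 lay in a long stretch without pooled summits.

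**Figure D2:**
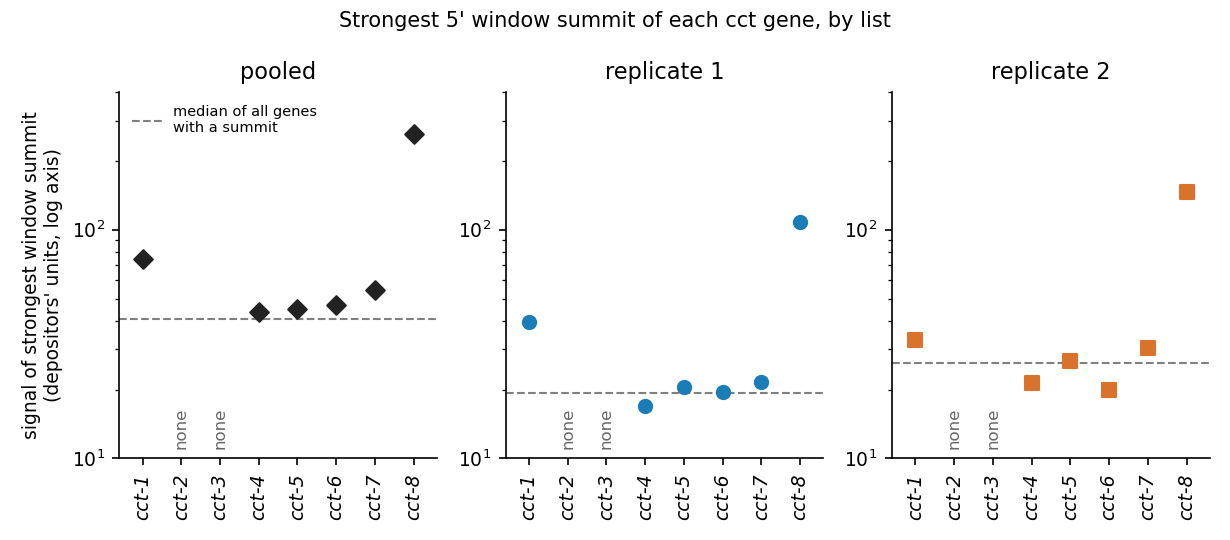
Signal of the strongest window summit of each cct gene in the pooled list and in both replicates, on a log axis in the depositors' units, with the dashed line at the median of all genes with a summit (40.6, 19.2 and 26.0). cct-8 is highest in each panel and cct-1 next, cct-4 and cct-6 change sides of the line between lists, and cct-2 and cct-3 have no value.

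The order of the members held in part between replicates, as the plot of signal by list shows. cct-8 and cct-1 were first and second in the pooled list and in each replicate. In replicate 1 they were followed by cct-7 with 21.6, cct-5 with 20.4, cct-6 with 19.6 and cct-4 with 16.9, and in replicate 2 by cct-7 with 30.4, cct-5 with 26.7, cct-4 with 21.4 and cct-6 with 19.9. Among the genes with a summit the median signal was 40.6 in the pooled list, 19.2 in replicate 1 and 26.0 in replicate 2. In the pooled list 4 of the members, cct-4, cct-5, cct-6 and cct-7, lay between 43.8 and 54.5, beside an upper quartile of 52.0 over the genes with a summit. With 1 value per gene and replicate, neighbours in this order cannot be told apart by a test.

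Among the 5627 protein-coding genes with a pooled summit, ranked by the strongest one, cct-8 was number 7, cct-1 number 502, cct-7 number 1246, cct-6 number 1899, cct-5 number 2074 and cct-4 number 2279. In replicate 1, with 7413 genes, cct-8 was number 12 and cct-1 number 430. In replicate 2, with 6083 genes, they were numbers 8 and 1564. The gene ranking plot shows the gap between cct-8 and the rest of the complex.

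**Figure D3:**
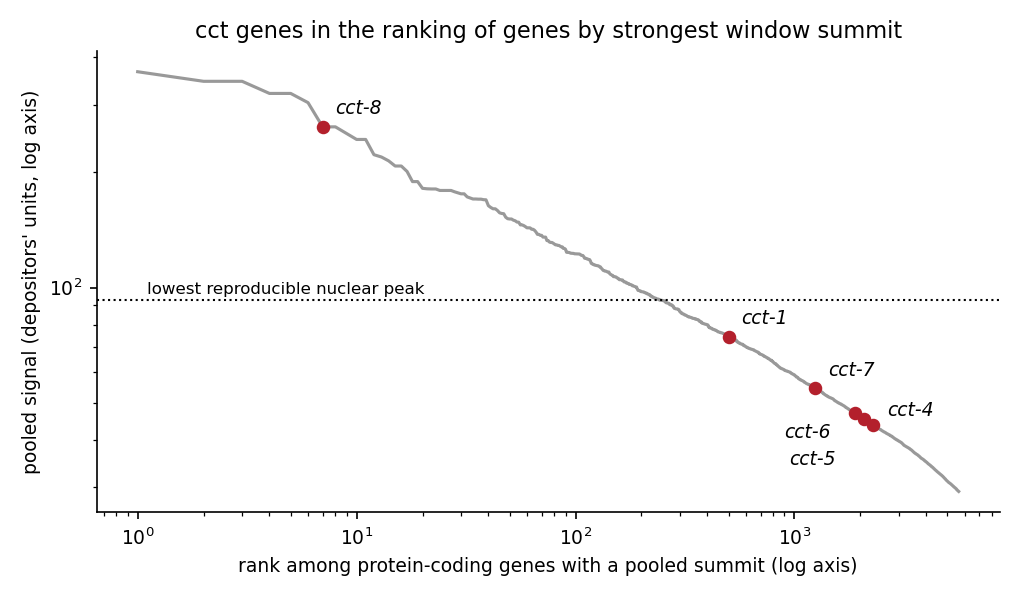
Pooled signal of the strongest window summit against rank for the 5627 protein-coding genes with one, both on log axes, with the 6 cct genes marked in red. The dotted line is the weakest reproducible nuclear peak, at 92.7, and cct-8 is the one cct gene above it.

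The genes nearest to cct-8 in this ranking were chosen by position alone. Y55F3AR.2, a gene with a thioredoxin domain, shared the cct-8 peak and hence its value. Its 5′ end was the nearer protein-coding one, at 191 bp, and the noncoding gene Y55F3AR.4 lay within 500 bp of the summit. The next distinct summit above belonged to rpl-3, for a large ribosomal subunit protein, with a pooled signal of 305 at rank 25 and 287 bp upstream. Its replicate values were 143 at rank 22 and 163 at rank 27. The next below belonged to cox-5A, for a subunit of cytochrome c oxidase, with 253 at rank 32 and 296 bp upstream, and 136 and 131 in the replicates. cct-8 lay below both in replicate 1, with 108, and between them in replicate 2, with 147.

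All 8 cct genes had a divergent neighbour, as did 42.2% of all protein-coding genes. That is, the adjoining upstream protein-coding gene was transcribed away from them on the other strand. Noncoding genes were left out of this definition. The noncoding genes T10B5.13 and Y55F3AR.4 overlapped the summit windows of cct-7 and cct-8, which lie in the gap. The neighbours were mig-5, a dishevelled protein, at cct-1, with 419 bp between both 5′ ends, B0457.2 at cct-2 with 1189 bp and F54A3.6 at cct-3 with 1069 bp. They were nst-1, a nucleostemin-like GTPase, at cct-4 with 458 bp, F25F2.1 at cct-5 with 740 bp and alh-9, an aldehyde dehydrogenase, at cct-6 with 330 bp. At cct-7 the neighbour was T10B5.4 with 438 bp, and at cct-8 it was Y55F3AR.2 with 620 bp. The members without a summit were those with the widest gaps.

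With the genes split by gap width, a split chosen after the values had been seen, 6 of the 6 members with a gap under 1000 bp had a pooled summit, as did 38.6% of 3439 protein-coding genes with such a gap. Of the members with a gap of 1000 to 1500 bp, 0 of 2 had one, as did 28.6% of 938 such genes. In 5 members the strongest pooled summit fell inside the gap, and in each it was nearer to the neighbour, at 57.9% of the way from the cct gene at cct-1, 63.8% at cct-7, 64.5% at cct-5, 64.7% at cct-6 and 69.2% at cct-8. The distance to the start of the neighbour was 177, 159, 263, 117 and 191 bp in the same order. A summit inside a shared gap therefore counted for both genes. How often such a summit was nearer to the neighbour was not computed over all protein-coding genes. When a summit counted only for the nearest 5′ end, 2 of the 8 members, cct-4 and cct-5, kept one, and 23.9% of all protein-coding genes did. cct-5 kept only its weaker summit of 34.2.

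Over all genes with a pooled summit the strongest one lay 198 bp upstream at the median, and in 70.6% of them upstream of the 5′ end. It was upstream in 5 of the 6 members, by 214 to 478 bp. More than 1 summit was found in the windows of 3 members, cct-4, cct-5 and cct-8, and in 19.3% of the genes with a summit.

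Beyond the window, the bodies of the cct genes held 7 pooled summits in 33.4 kb, or 0.209 per kb, beside 0.163 per kb over all protein-coding genes. The values were 0.299 and 0.231 per kb in replicate 1 and 0.329 and 0.191 in replicate 2. The reproducible list had 0 summits there, beside only 0.00225 per kb over all protein-coding genes. In cct-5, 4 pooled summits lay in introns, and the highest, 5265 bp into the gene, had a signal of 60.1 at rank 1716, above the 45.2 at its 5′ end. Replicate 2 had 37.6 at rank 2172 at 5322 bp, while replicate 1 had 16.0 at rank 16208 at 5000 bp. In cct-6 a summit of 50.3 at rank 3189 lay in an exon 7 bp from the 3′ end, 268 bp from the 5′ end of ddx-23, an RNA helicase gene. Replicate 2 had it at 31.5 and rank 4255, 8 bp from the 3′ end, and in replicate 1 the summit in the body was elsewhere, 666 bp from the 5′ end in an intron with 25.9. In the pooled list the exonic body summits of cct-8 and cct-4 were weaker, at 32.8 and 34.5. In replicate 2 an exonic summit of cct-8, 3853 bp into the gene, had 32.6 at rank 3765, above that of cct-6.

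A reproducible peak was far from most members apart from cct-8. The nearest one to cct-7 lay 3497 bp upstream in T10B5.3, with 105 at rank 262, and for the other 6 genes the distance ran from 84302 bp at cct-6 to 655849 bp at cct-3. The median over all protein-coding genes was 106141 bp.

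Prefoldin, the clients of the chaperonin and its mitochondrial counterpart were described in the same way, over 29 genes in 6 lists. Of the 6 prefoldin genes, 3 had a pooled summit and 0 a reproducible one, and 4 and 3 had one in replicates 1 and 2. The highest was at pfd-1, with 64.5 at rank 1350 and 357 bp upstream. The mitochondrial chaperonin genes hsp-60 and Y22D7AL.10 lie head to head and shared 1 peak, at chrIII:1618870-1619299, with 208 at rank 46 in the pooled and the reproducible list. Its summit was 657 bp upstream of hsp-60 and 156 bp upstream of Y22D7AL.10, and it had 112 at rank 33 in replicate 1 and 105 at rank 55 in replicate 2. The mitochondrial pair thus counts as 2 of 2 genes but as 1 peak, like cct-8 and its neighbour.

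Among the client genes, 1 of 5 actin genes had a pooled summit, act-4 with 41.3 at rank 6347 and 106 bp downstream. Of the alpha-tubulin genes it was 3 of 9, highest at tba-2 with 83.0 at rank 577 and 181 bp upstream, and of the beta-tubulin genes 3 of 6, highest at tbb-2 with 53.9 at rank 2505 and 399 bp upstream. None of these had a reproducible summit, that is, 0 of 5, 0 of 9 and 0 of 6. The single gamma-tubulin gene, tbg-1, had one of 103 at rank 282 and 923 bp upstream, with 48.6 and 56.5 in the replicates, but the 5′ end of rpac-19, for an RNA polymerase subunit, was nearer at 192 bp. In replicates 1 and 2 the counts were 3 and 2 of 5 for actin, 5 and 4 of 9 for alpha-tubulin and 5 and 5 of 6 for beta-tubulin. The shares over all protein-coding genes in these lists were 37.1% and 30.5%. The lists are short and were not tested against each other, and actin and tubulin genes have near-identical copies whose reads the depositors' mapping could have shared or dropped.

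**Figure D4:**
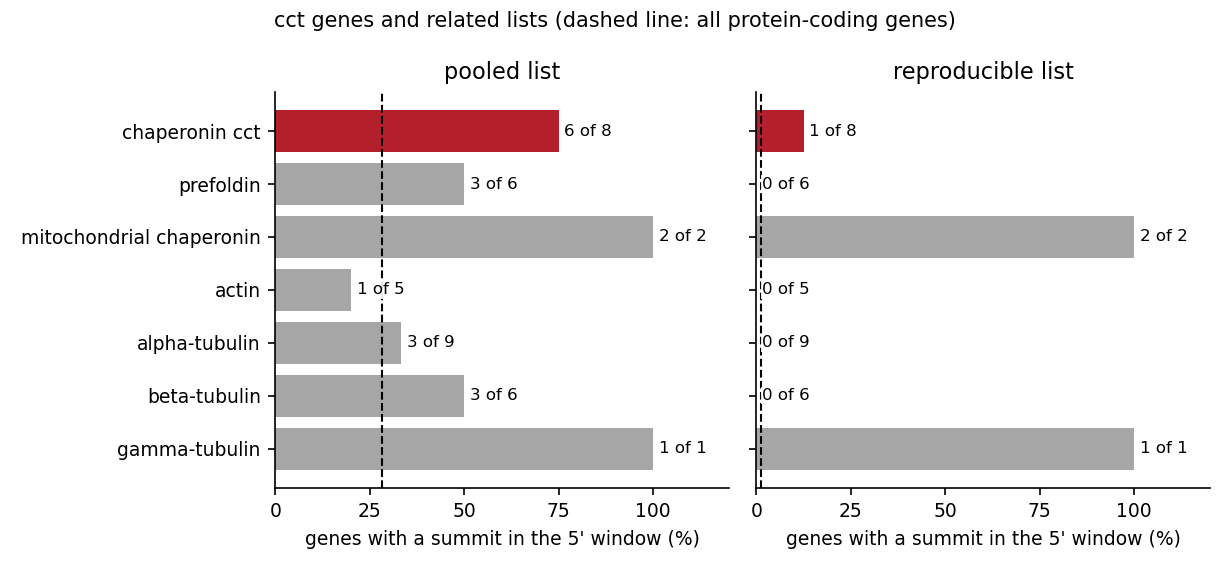
Share of genes with a summit in the window (%, bars from 0) for the cct genes in red and the 6 related lists in grey, in the pooled and the reproducible list, with counts beside the bars. Dashed lines mark all protein-coding genes, at 28.2% and 1.22%, and the mitochondrial and gamma-tubulin bars at 100% rest on 1 peak each.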

How the data were processed

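The deposited files were peak lists in narrowPeak layout, and the 4 lists on ce11 were used. Per the labels, the samples were biological replicates 1 and 2 of 1 strain. Per the deposited file manifests, each replicate list was made with a shared control, the pooled list from both replicates, and the reproducible list from these by an IDR (irreproducible discovery rate) threshold. Neither the peak caller, aligner nor threshold was given in these sources, and the control data were not used here. Peak signal is the authors' deposited value. The −log10 q-value is also the authors' and was at most 2.05 in the pooled list, with the members' values given above. Several summits can share an interval.

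Summits were placed against 5′ ends of Ensembl release 115, and 0 peaks ran past a chromosome end of the RefSeq sequence used. Ranks run over whole lists by signal. By rule, the genes named besides the members were those nearest to their strongest summits, noncoding genes within 500 bp, the highest or reproducible gene of each related list, and the genes next to cct-8 in the ranking. Outside that rule, and after values were seen, mrpl-50, Y59C2A.3, T10B5.3, ddx-23 and rpac-19 were named as lying at or near a described summit, and nst-1, B0457.2 and F54A3.6 as divergent neighbours. No statistical test was made, since there was 1 group. The members, lists and motifs were chosen with earlier results of these data known. The summit assignment was tested on simulated data. Other windows, transcript ends, nearest-gene assignment, stricter lists and single replicates were the alternatives. Python 3.11.15, numpy 2.4.6 and pandas 2.3.3 were used.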

Additional observations from a re-analysis of the deposited data

How the results depend on the processing

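The assignment of a summit to genes changed the counts most. When a summit counted only for the protein-coding gene with the nearest 5′ end, the members with one fell from 6 to 2 in the pooled list (cct-4 and cct-5), from 1 to 0 in the reproducible list, from 6 to 2 in replicate 1 (cct-4 and cct-5) and from 6 to 2 in replicate 2 (cct-4 and cct-7). The rule gives a summit in a divergent gap to the nearer 5′ end. In the pooled list the strongest summits of 5 members lay in such a gap and nearer to the neighbour, so they counted for the neighbour. In the pooled list 23.9% of all protein-coding genes had a summit under that rule. That share was not computed for the reproducible list or for the replicate lists. The other 25 alternative counts were within 1.5 times the main count or equal to it. With each list cut at its median signal, the count stayed at 6 in the pooled list (16.9% of all protein-coding genes). It fell to 5 in replicate 1 (22.1%) and to 4 in replicate 2 (17.5%). The pooled count of 6 stood against 18.8% in the narrower window and 41.1% in the wider one. The signals of the strongest summits were the same in both of these windows. In place of the pooled list, replicates 1 and 2 alone gave 6 and 6 members, against 37.1% and 30.5% of all protein-coding genes. In place of the reproducible list, the strongest peaks of replicates 1 and 2 gave 1 and 1, against 1.31% and 0.991%. No paired analysis was possible because there was 1 group.

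Limits. The pooled and replicate lists hold background as well as peaks, so a summit in them is not by itself a called peak, and only the reproducible list was thresholded. Depth and background are unknown here. Signal carries no error, and 2 replicates do not allow an interval.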
